A study of Mus musculus with 6 samples.

Results

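Antioxidant defence genes of the mouse lacrimal gland were described in RNA from AQP5+/+ and AQP5-/- animals. The set held 34 genes of the 22564 protein-coding genes in the mRNA table, chosen by symbol for their known roles. Earlier results of these data were known when they were chosen. They were taken in branches of 3 superoxide, 13 peroxide, 7 thioredoxin and 6 glutathione genes, with 5 genes for their regulation and for quinone and haem metabolism. The libraries came from C57BL/6 mice aged 6 months, 3 libraries of each genotype, and the question was how loss of aquaporin 5, the apical water channel of the gland's secretory cells, altered gland RNA. The AQP5-/- mice were made by CRISPR/Cas9 editing of fertilised eggs. The AQP5+/+ mice were wild type and matched for age, and no treatment was given to either genotype in the labels. The profiled groups were described as mice, n = 3 for each genotype, and each library was taken as 1 mouse, so p-values rest on the spread between these mice.

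Cells that secrete protein and fluid make superoxide and hydrogen peroxide as by-products of respiration and of oxidative protein folding. Superoxide dismutases turn superoxide into hydrogen peroxide, which catalase, glutathione peroxidases and peroxiredoxins then reduce to water. Peroxiredoxins draw their electrons mainly from thioredoxin and glutathione peroxidases from glutathione, and both are recharged with NADPH. The transcription factor NRF2 (Nfe2l2), held down by KEAP1, drives many of these genes through antioxidant response elements in their promoters.

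Levels are given as FPKM, fragment counts scaled to transcript length and library size, which allows genes of different length to be compared. Aqp5 itself stood at 153.8, 89.0 and 141.8 FPKM in AQP5+/+ replicates 1, 2 and 3 and at 0.38, 0.18 and 0.17 FPKM in AQP5-/- replicates 1, 2 and 3, as the labels say. Lpo, which encodes lactoperoxidase, and the acinar transcription factor Bhlha15 were present in every library, at 354 to 1027 FPKM and 126 to 192 FPKM, whereas Prol1, a proline-rich lacrimal gene, was at 0 to 1.11 FPKM. The 9 acinar markers, Aqp5 among them, summed to 3776 to 5857 FPKM in AQP5+/+ and 2202 to 4482 FPKM in AQP5-/- libraries. Car6 alone stood at 858 to 4719 FPKM. Aqp5, Dmbt1 and Prlr were called at least 2-fold lower, against 0.883% of all genes. Dmbt1 and Prlr had log2 fold changes of -1.02 and -1.29, and Car6 was at -1.12 but not called. Pigr was at -0.59, whereas Lpo, Slc12a2 and Bhlha15 were at 0.36, 0.13 and 0.10, none of them called. For Dmbt1 and Prlr AQP5+/+ replicate 2 lay within the AQP5-/- range, and the part of these differences in the results was not tested. Each library held 11244594 to 13723153 estimated fragments. FPKM summed over all genes to 385631 in AQP5+/+ replicate 1 and to 747563 or more in the other libraries. AQP5+/+ libraries differed among themselves. The Y-linked genes Ddx3y, Uty, Kdm5d and Eif2s3y summed to 0.18 and 0.32 FPKM in AQP5+/+ replicates 3 and 1, but to 33.003 FPKM in AQP5+/+ replicate 2 and to 49.7 to 58.0 FPKM in the AQP5-/- libraries. The lower sum of AQP5+/+ replicate 2 lay mainly in Eif2s3y, at 2.0351 FPKM against 17.783, 28.024 and 22.876 FPKM in AQP5-/- replicates 1, 2 and 3. Between AQP5+/+ replicate 2 and the AQP5-/- libraries the log2 fold change of Eif2s3y was 3.18. Those of Ddx3y, Uty and Kdm5d were 0.08, -0.19 and 0.30. The presence of Y-linked transcripts and the genotype therefore cannot be told apart except through AQP5+/+ replicate 2, and that library also held skeletal muscle transcripts, at a sum of 61.2 FPKM over 7 genes against 1.74 to 6.72 FPKM in the others.

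Promoter sequence was searched for the core letters of the antioxidant response element, TGACNNNGC on either strand, the letters that NRF2 and its small MAF partners bind. RefSeq promoters of the GRCm38.p6 build were used, from 250 bases before to 50 bases after the start of each gene, and 29 of the 34 members had an entry. Sod3, Gclc, Gsr, Hmox1 and Prdx6 had no entry and were not searched. The letters were present for 6 of the 29 (20.7%) and for 14.0% of 27025 genes with an entry. They lay before the start of Gclm, Prdx1, Txnrd1, Sod1 and Nfe2l2 and after the start of Srxn1. The windows are printed for the 5 members with the match before the start, 5′ to 3′ on the strand of the gene, with the match in capitals. A match describes these letters only and is not evidence of binding. The Gclm window lies at chr3:122245407-122245447, plus strand, with the match 134 bases before the start. The Prdx1 window lies at chr4:116685450-116685490, plus strand, and its match overlaps TGAGTCA, the letters of an AP-1 site. The Txnrd1 window lies at chr10:82859098-82859138 and the Sod1 window at chr16:90220690-90220730, both on the plus strand, and the Nfe2l2 window at chr2:75704879-75704913 on the minus strand.
Gclm: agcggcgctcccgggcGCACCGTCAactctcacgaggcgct
Prdx1: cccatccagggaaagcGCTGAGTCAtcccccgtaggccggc
Txnrd1: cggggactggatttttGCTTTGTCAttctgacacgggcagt
Sod1: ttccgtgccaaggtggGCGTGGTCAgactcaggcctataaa
Nfe2l2: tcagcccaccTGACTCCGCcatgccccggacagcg
The median log2 fold change between genotypes was -0.08 over the 6 members with the letters, from -0.59 to 0.18, and 0.01 over the 23 tested members without them, from -0.59 to 0.64. Both ranges covered 0, and their difference was not tested.

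The set as a whole differed little between AQP5-/- and AQP5+/+ glands. Of the 34 members 33 passed the minimum mean of 0.5 FPKM and were compared with limma on log2(FPKM + 0.5), a scale that understates changes of weakly expressed genes. At an unadjusted p under 0.05 limma called 3 of 33 members (9.09%), where it called 11.4% of 11772 genes tested. Prdx4 and Gclc were higher in AQP5-/- glands, against a background of 3.27% of genes called higher, and Gpx2 was lower, against 8.12% called lower. None of the 33 also differed by at least 2-fold, which 2.04% of genes did (1.16% higher and 0.883% lower), and none reached a Benjamini-Hochberg adjusted p under 0.05, which 0.0170% of genes did. The members' adjusted p-values lay between 0.431 and 0.967. The members' share of calls was thus close to that of all genes. In RNA of whole gland a change in the number of cells of a type and a change in RNA per cell cannot be told apart.

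The log2 fold changes of the members ran from -0.59 for Gpx2 to 0.64 for Gpx7, with a median of -0.06. The median over all 11772 genes was -0.12, a shift that became 0.01 when each library was centred on its own median, and the members' median then became 0.08. Fold changes below 0 were found for 18 of 33 members, against 67.0% of all genes. For 23 of 33 members the 95% interval of the log2 fold change lay within -1 and 1, as it did for 75.7% of genes, so a 2-fold difference lay outside the interval for these members. The median standard error of the members was 0.19 on the log2 scale.

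**Figure D1:**
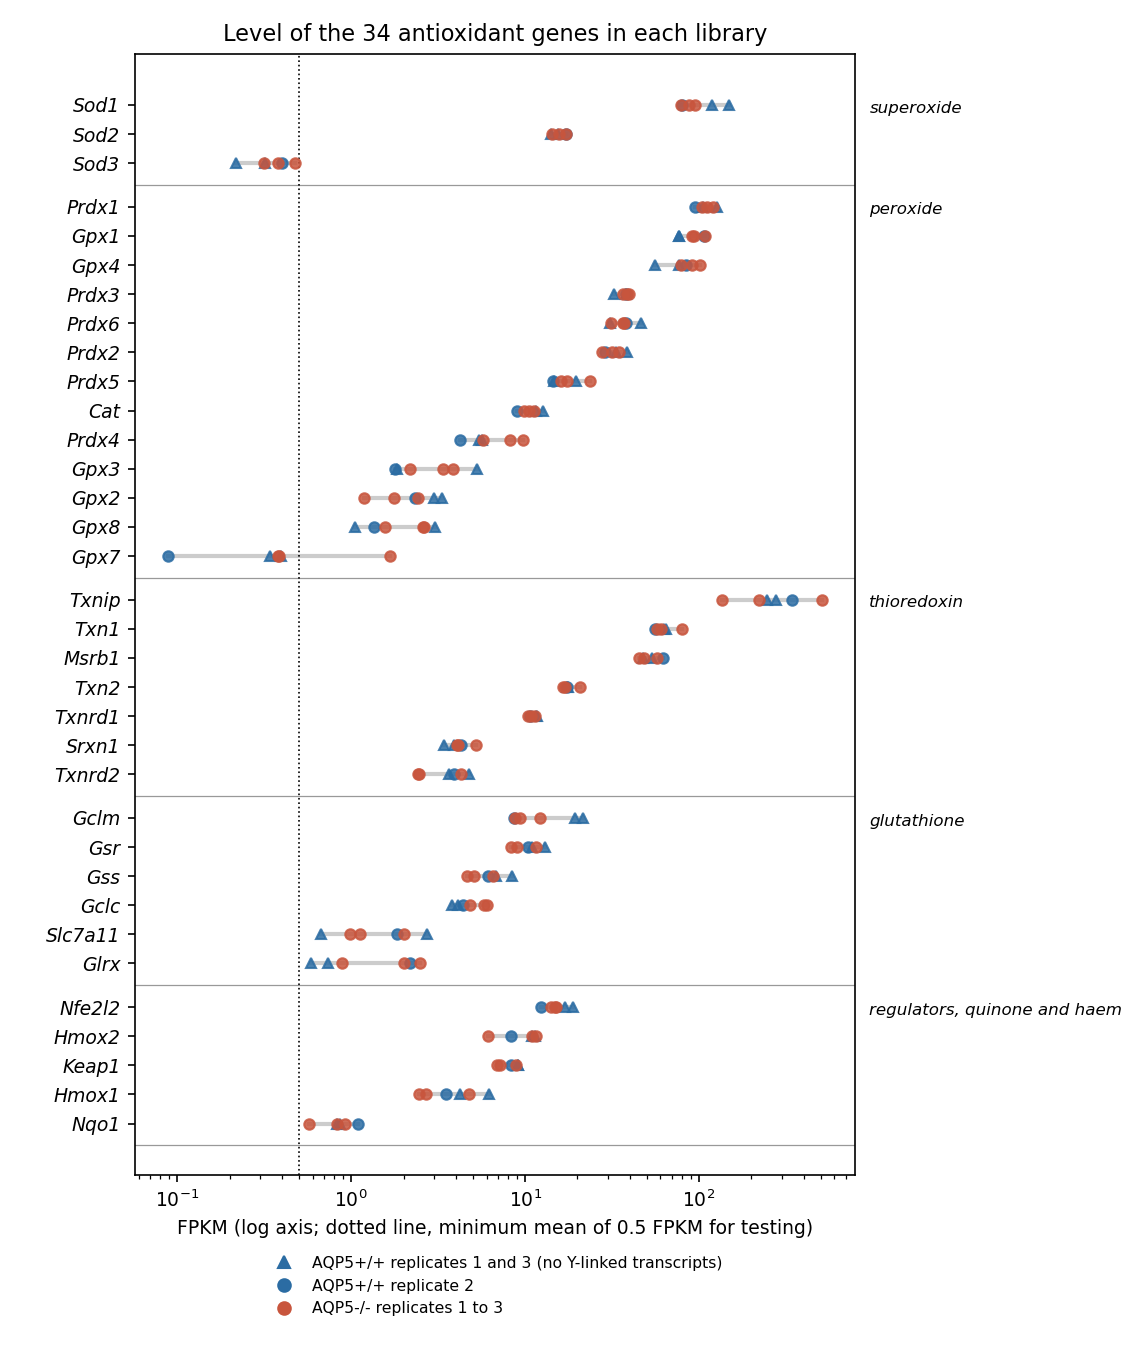
FPKM (log axis) of each of the 34 genes, 1 point per library, by branch. AQP5+/+ replicates 1 and 3 are drawn as blue triangles, AQP5+/+ replicate 2 as a blue circle and the 3 AQP5-/- libraries as red circles, and grey bars span the 6 libraries. Levels run from under 0.5 FPKM for Sod3, left of the dotted minimum, to means of 101 FPKM for Sod1, 110 FPKM for Prdx1 and 289 FPKM for Txnip, and red and blue points overlap in nearly every row.

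The superoxide branch was carried by Sod1, the cytosolic copper and zinc enzyme, and Sod2, the mitochondrial manganese enzyme. Sod1 stood at 119, 79.9 and 149 FPKM in AQP5+/+ replicates 1, 2 and 3 and at 78.6, 87.6 and 94.2 FPKM in AQP5-/- replicates 1, 2 and 3. AQP5+/+ replicates 1 and 3 were higher than the other 4 libraries, while AQP5+/+ replicate 2 lay among the AQP5-/- values, so the genotypes overlapped. Sod1 had a log2 fold change of -0.38 (SE 0.23, 95% interval -0.90 to 0.15, limma adjusted p = 0.492). Without AQP5+/+ replicate 2 it was -0.62 (limma unadjusted p = 0.00423, adjusted p = 0.0522). Sod2 lay between 14.1 and 17.2 FPKM in all 6 libraries, with a mean of 15.5 ± 1.495 in AQP5+/+ and 15.7 ± 1.44 in AQP5-/- glands (SD, n = 3 each). Its log2 fold change was 0.01 with a 95% interval of -0.30 to 0.33, among the narrowest of the set. Sod3, the extracellular enzyme, was listed at 0.320, 0.4001 and 0.218 FPKM in AQP5+/+ and at 0.317, 0.477 and 0.380 FPKM in AQP5-/- libraries, or 12 to 28 fragments, and was not tested.

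In the peroxide branch Prdx4 was the member called higher. It encodes the peroxiredoxin of the endoplasmic reticulum, where it uses hydrogen peroxide to drive disulfide formation in secreted proteins, and lies on the X chromosome (mm10, 155323918 to 155340754, minus strand). Prdx4 stood at 5.62, 4.24 and 5.45 FPKM in AQP5+/+ replicates 1, 2 and 3 and at 9.78, 8.13 and 5.72 FPKM in AQP5-/- replicates 1, 2 and 3. All AQP5-/- libraries were above all AQP5+/+ libraries, with AQP5-/- replicate 3 only just above them. Such separation was seen for 2 of 33 members, Prdx4 and Gclc, and for 14.9% of all genes, 3.86% with AQP5-/- higher. The log2 fold change of Prdx4 was 0.56 (SE 0.22, 95% interval 0.05 to 1.06, limma unadjusted p = 0.0343, adjusted p = 0.431), a fold of 1.04 to 2.09. It rested on 70 to 151 fragments per library. With libraries centred on their medians it was 0.70. The call was lost without AQP5+/+ replicate 2 (unadjusted p = 0.0894 in limma, adjusted p = 0.240) or 3 (0.0537) or without AQP5-/- replicate 1 (0.125) or 2 (0.0900), and with library weights (0.0963, adjusted 0.237), and the log2 fold change lay between 0.39 and 0.79 over all 20 alternatives.

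Gpx2, a glutathione peroxidase best known from the gut epithelium, was the member called lower. Its levels were 3.002, 2.32 and 3.34 FPKM in AQP5+/+ replicates 1, 2 and 3 and 1.18, 2.41 and 1.75 FPKM in AQP5-/- replicates 1, 2 and 3. AQP5+/+ replicates 1 and 3 were the highest, and AQP5+/+ replicate 2 lay below AQP5-/- replicate 2. Limma gave a log2 fold change of -0.59 (SE 0.25, 95% interval -1.18 to -0.01, limma unadjusted p = 0.0477, adjusted p = 0.432), from 20 to 56 fragments per library. The call was lost under 11 of 20 alternatives, among them centring (unadjusted p = 0.0540 in limma, adjusted p = 0.429) and leaving out AQP5+/+ replicate 1 or 3 or AQP5-/- replicate 1 or 3, with its sign kept. The listed locus of Gpx2 (mm10, chromosome 12, 76765287 to 76921412) spans 156126 bases and takes in Churc1, Rab15 and Fntb, and Gpx2 has a named pseudogene, so its value is uncertain where fragments were divided between entries.

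Prdx1, the cytosolic peroxiredoxin, had the highest mean level of the branch, 110 FPKM. Its values were 126, 95.2 and 105 FPKM in AQP5+/+ replicates 1, 2 and 3 and 111, 104 and 120 FPKM in AQP5-/- replicates 1, 2 and 3. The genotypes overlapped throughout, and the log2 fold change was 0.04 (SE 0.15, 95% interval -0.31 to 0.39, limma adjusted p = 0.911). Gpx1, the general cytosolic and mitochondrial glutathione peroxidase, stood at 76.9, 107 and 76.7 FPKM in AQP5+/+ and at 90.9, 94.1 and 108 FPKM in AQP5-/- libraries. Gpx4, which reduces lipid peroxides in membranes, stood at 76.7, 83.7 and 55.6 FPKM in AQP5+/+ and at 79.0, 90.9 and 101 FPKM in AQP5-/- libraries. For both genes AQP5+/+ replicates 1 and 3 were the lowest of the 6 libraries and AQP5+/+ replicate 2 lay among the AQP5-/- values. Their log2 fold changes were 0.18 and 0.34, and without AQP5+/+ replicate 2 they were 0.34 and 0.46 (unadjusted p = 0.0294 and 0.0369, adjusted p = 0.134 and 0.1497, limma). Between AQP5+/+ replicate 2 and the AQP5-/- libraries they were -0.13 and 0.10, so the direction for Gpx1 turned. The listed locus of Gpx4 spans 672333 bases with 44 other annotated genes, and Gpx4 and Prdx1 have named pseudogenes, so both values carry this doubt.

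The other peroxide members were not called. The mitochondrial Prdx3 (mean 37.2 FPKM), the lipid-reducing Prdx6 (36.6 FPKM), the cytosolic Prdx2 (32.5 FPKM), Prdx5 (17.7 FPKM) and the peroxisomal catalase gene Cat (10.8 FPKM) had log2 fold changes of 0.09, -0.11, -0.09, 0.22 and -0.05. Prdx3 was among the most even, with a highest library 1.22 times the lowest. Gpx3, which is secreted into plasma, and Gpx8, a peroxidase of the endoplasmic reticulum, had means of 3.05 and 2.04 FPKM and wide intervals, from -0.71 to 1.07 and from -0.46 to 1.12 on the log2 scale. Gpx7, also of the endoplasmic reticulum, had the largest log2 fold change of the members, 0.64, but was listed at 0.342, 0.088 and 0.395 FPKM in AQP5+/+ and at 1.68, 0.384 and 0.380 FPKM in AQP5-/- libraries. One library, AQP5-/- replicate 1, stood apart, and 2 to 9 fragments per library lay behind these values. Over the 13 peroxide members the median log2 fold change was 0.18, with 4 below 0.

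**Figure D2:**
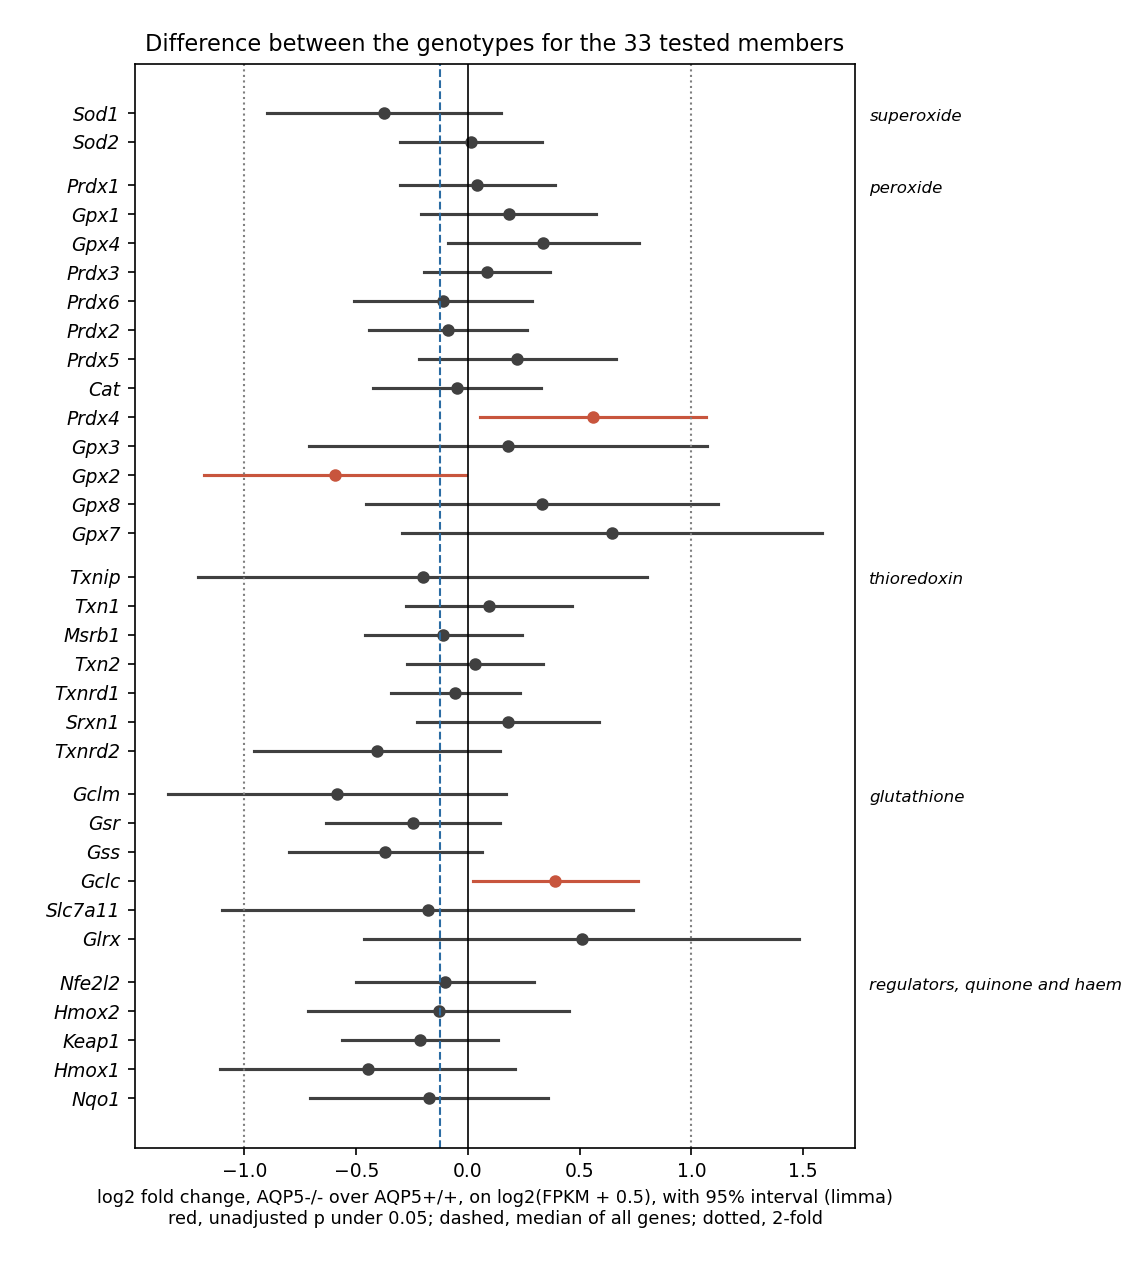
Log2 fold change of AQP5-/- over AQP5+/+ glands for the 33 tested members on log2(FPKM + 0.5), with 95% intervals from limma, by branch. Prdx4, Gclc and Gpx2, at an unadjusted p under 0.05, are in red. The dashed line marks the median of all genes (-0.12) and the dotted lines mark 2-fold, and 23 of the 33 intervals lie between the dotted lines.

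In the thioredoxin branch no member was called. Txnip, which binds and inhibits thioredoxin and is induced by glucose, had the highest mean level of all 34 genes, 289 FPKM. It stood at 277, 344 and 247 FPKM in AQP5+/+ replicates 1, 2 and 3 and at 511, 222 and 135 FPKM in AQP5-/- replicates 1, 2 and 3. AQP5-/- replicate 1 was the highest library and AQP5-/- replicates 2 and 3 the lowest, so that the AQP5-/- libraries enclosed the AQP5+/+ libraries. Over all libraries Txnip had a log2 fold change of -0.20 (SE 0.43, 95% interval -1.21 to 0.80, limma adjusted p = 0.848). Without AQP5-/- replicate 1 it was -0.72 (limma unadjusted p = 0.0349, adjusted p = 0.634). That library also had the highest sum of 8 immediate early genes, 607 FPKM against 116 to 237 FPKM in the other 5 libraries, with Fos at 128 FPKM, and the part of this in the Txnip level was not tested.

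Thioredoxin and its reductases were steadier. Txn1, the cytosolic thioredoxin, stood at 64.7, 56.1 and 62.9 FPKM in AQP5+/+ and at 60.8, 57.1 and 80.2 FPKM in AQP5-/- libraries, with AQP5-/- replicate 3 the highest. Txnrd1, the cytosolic selenoenzyme that reduces it, had the smallest spread of the set, with a highest library 1.13 times the lowest and a mean of 11.1 FPKM. Its log2 fold change was -0.06 (95% interval -0.35 to 0.23). The mitochondrial pair of Txn2 and Txnrd2 had log2 fold changes of 0.03 and -0.41. Txnrd2 reached an unadjusted p of 0.0170 in limma without AQP5-/- replicate 2 (log2 fold change -0.64, adjusted p = 0.476), and its 95% interval over all libraries was -0.96 to 0.14. On estimated fragments its direction turned, with log2 fold changes of 0.15 in edgeR and in DESeq2. Srxn1, which rescues overoxidised peroxiredoxins, and Msrb1, a selenoprotein that repairs oxidised methionine, had log2 fold changes of 0.18 and -0.11. Over the 7 members the median was -0.06.

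In the glutathione branch Gclc was called higher. Gclc and Gclm encode the catalytic and the modifier subunit of glutamate-cysteine ligase, the enzyme that sets the rate of glutathione synthesis. Gclc (mm10, chromosome 9, 77754535 to 77794485, plus strand) stood at 4.14, 4.38 and 3.79 FPKM in AQP5+/+ replicates 1, 2 and 3 and at 6.01, 5.80 and 4.83 FPKM in AQP5-/- replicates 1, 2 and 3. Every AQP5-/- library was above every AQP5+/+ library. Gclc had a log2 fold change of 0.39 (SE 0.16, 95% interval 0.02 to 0.76, limma unadjusted p = 0.0406, adjusted p = 0.431), a fold of 1.01 to 1.69, from 199 to 381 fragments per library. It kept its sign in all 20 alternatives, between 0.31 and 0.57, and lost the call in 7, among them those without AQP5+/+ replicate 1 or 3 or AQP5-/- replicate 1 or 2, where the unadjusted p lay between 0.0777 and 0.124 in limma and the adjusted p between 0.477 and 0.863.

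Gclm, the modifier subunit (mm10, chromosome 3, 122245557 to 122293547), stood at 21.5, 8.58 and 19.3 FPKM in AQP5+/+ replicates 1, 2 and 3 and at 8.74, 9.39 and 12.3 FPKM in AQP5-/- replicates 1, 2 and 3. The other 4 libraries lay far below AQP5+/+ replicates 1 and 3, and AQP5+/+ replicate 2 was the lowest of all 6. Over all 6 libraries its log2 fold change was -0.59 (SE 0.33, 95% interval -1.34 to 0.17, limma adjusted p = 0.469). Without AQP5+/+ replicate 2 it was -0.99 (limma unadjusted p = 0.000707, adjusted p = 0.0198), the one member to pass the adjusted threshold in any of the alternatives, where 7.79% of all genes passed it. Between the libraries that hold Y-linked transcripts it was 0.21. The listed locus of Gclm takes in Dnttip2.

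Glrx, the glutaredoxin that reduces glutathione-bound proteins, divided the AQP5+/+ libraries in the opposite sense. It stood at 0.733, 2.18 and 0.591 FPKM in AQP5+/+ replicates 1, 2 and 3 and at 2.01, 0.886 and 2.49 FPKM in AQP5-/- replicates 1, 2 and 3. The lowest levels were those of AQP5+/+ replicates 1 and 3, and the log2 fold change was 0.51 (SE 0.42, limma adjusted p = 0.593), from 11 to 62 fragments per library. Without AQP5+/+ replicate 2 it was 0.91 (limma unadjusted p = 0.0370, adjusted p = 0.1497), with library weights 0.92 (unadjusted p = 0.0273, adjusted p = 0.123), and between AQP5+/+ replicate 2 and the AQP5-/- libraries it turned to -0.30. Gsr, which returns oxidised glutathione to its reduced form with NADPH, and Gss, which completes glutathione synthesis, had means of 10.5 and 6.26 FPKM and log2 fold changes of -0.25 and -0.37. Gss passed an unadjusted p of 0.05 in limma without AQP5+/+ replicate 2 (0.0468, adjusted 0.170) or AQP5-/- replicate 3 (0.0462, adjusted 0.704), with log2 fold changes of -0.46 and -0.50. Its listed locus takes in Ggt7 and Acss2. Slc7a11, the cystine importer, had a mean of 1.56 FPKM, a highest library 4.09 times the lowest and a log2 fold change of -0.18. Over the 6 members the median was -0.21.

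**Figure D3:**
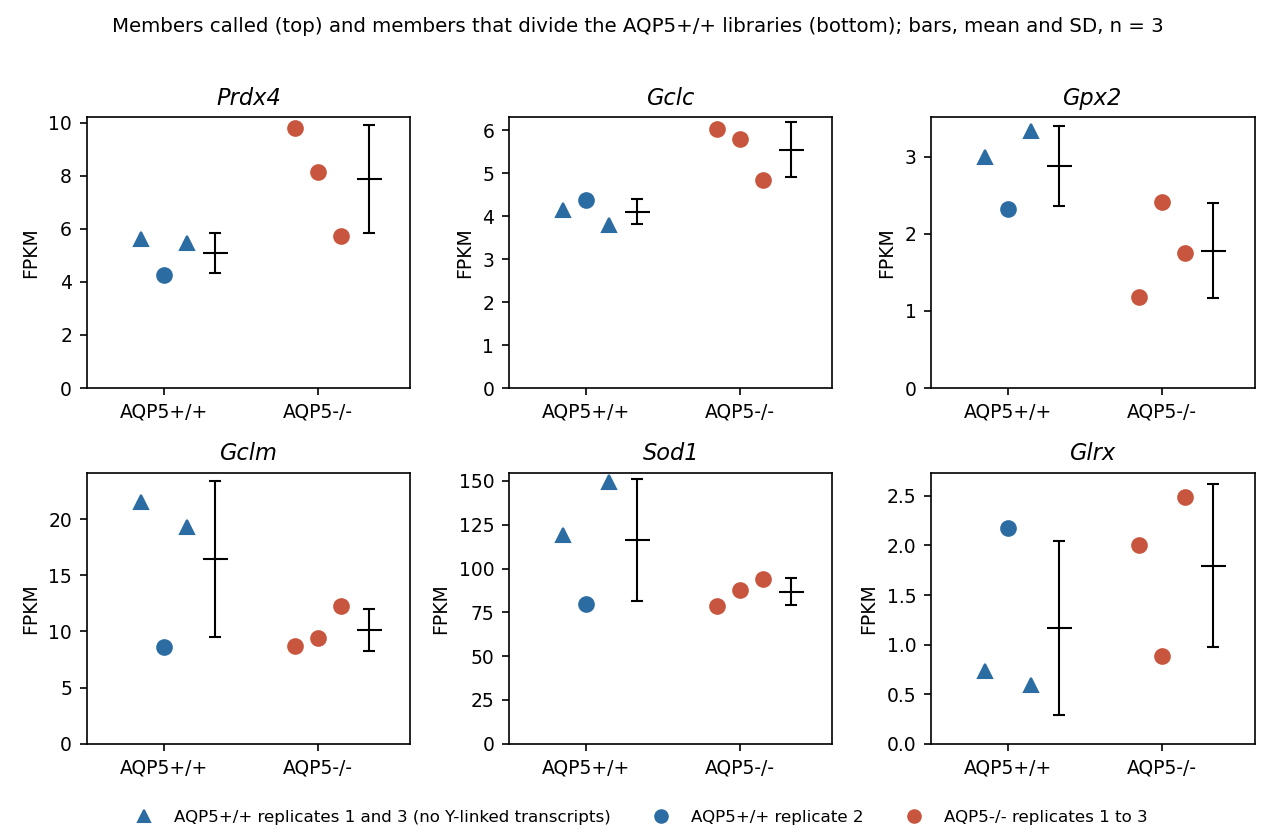
FPKM in each library for the 3 members called (top) and for 3 members whose AQP5+/+ libraries divide (bottom), the latter chosen after their values were seen. Bars give the mean and SD of 3 libraries per genotype, and all axes start at 0. Gclc and Prdx4 separate the genotypes, whereas for Gclm, Sod1 and Glrx AQP5+/+ replicate 2 lies with the AQP5-/- libraries and not with AQP5+/+ replicates 1 and 3.

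The regulators and the quinone and haem enzymes were all at log2 fold changes below 0, with none called, though Nfe2l2 and Hmox2 lay above 0 once libraries were centred on their medians. Nfe2l2, which encodes NRF2, stood at 17.0, 12.3 and 18.9 FPKM in AQP5+/+ replicates 1, 2 and 3 and at 15.01, 14.9 and 14.1 FPKM in AQP5-/- replicates 1, 2 and 3. AQP5+/+ replicates 1 and 3 were the highest and replicate 2 the lowest, with the AQP5-/- libraries close together between them. The log2 fold change was -0.10 (SE 0.17, 95% interval -0.50 to 0.30, limma adjusted p = 0.795), near the median of all genes, and its sign changed in 7 of 20 alternatives, centring among them (0.03). Keap1, its repressor, had a mean of 8.25 FPKM and a log2 fold change of -0.21 that kept its sign throughout. Nqo1, a quinone reductase widely used as an NRF2 marker, was weakly expressed at 0.573 to 1.10 FPKM, from 13 to 31 fragments, with a log2 fold change of -0.17.

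Hmox1, the inducible haem oxygenase, stood at 6.18, 3.49 and 4.24 FPKM in AQP5+/+ replicates 1, 2 and 3 and at 2.68, 2.46 and 4.77 FPKM in AQP5-/- replicates 1, 2 and 3. The lowest were AQP5-/- replicates 1 and 2, but AQP5-/- replicate 3 was above AQP5+/+ replicates 2 and 3. Hmox1 had a log2 fold change of -0.45 (SE 0.29, limma adjusted p = 0.503), and without AQP5-/- replicate 3 it was -0.71 (limma unadjusted p = 0.0342, adjusted p = 0.704). Hmox2, the constitutive form, had a mean of 9.89 FPKM and a log2 fold change of -0.13, which changed sign in 7 of 20 alternatives, centring among them (0.007). The median of the 5 was -0.17, close to the shift of -0.12 over all genes.

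AQP5+/+ replicates 1 and 3 stood together outside the range of the other 4 libraries for 13 of the 33 members (39.4%), as they did for 43.6% of all genes. They were above the other 4 for 8 members, Sod1, Cat, Gpx2, Txnrd1, Gclm, Gss, Nfe2l2 and Keap1, against 35.6% of genes. They were below them for 5 members, Gpx1, Gpx4, Srxn1, Glrx and Gclc, against 8.02% of genes. The median FPKM of tested genes was also highest in AQP5+/+ replicates 1 and 3, at 6.17 and 5.98. It was 4.84 to 5.56 in the other 4 libraries, and the part of this offset in the counts was not tested. A fit in which the presence of Y-linked transcripts was a covariate compares AQP5+/+ replicate 2, the one control of this kind, with the 3 AQP5-/- libraries. A lone control has no spread of its own, so the variance came from the other libraries and the lone library was assumed to vary like them. In that limma fit Prdx4 alone of the 33 members was called (log2 fold change 0.79, unadjusted p = 0.0278, adjusted p = 0.9996), against 2.96% of genes. Gclc then had a log2 fold change of 0.31, Gpx2 of -0.34 and Sod1 of 0.11. Without AQP5+/+ replicate 2, 8 of 33 members were called at an unadjusted p under 0.05 in limma, against 28.6% of genes. With libraries weighted by how closely they followed the genotype fit 8 were called, against 30.0% of genes. In these 3 fits the share of members called was close to or below that of all genes.

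Other genes of antioxidant metabolism were counted from lists written from general knowledge, with earlier results of these data known. The shares called in these lists are therefore not an independent comparison with all genes. Of 124 symbols 117 were in the table and 97 were tested. At an unadjusted p under 0.05 limma called 24 of the 97 (24.7%, against 11.4% of all genes), 8 higher and 16 lower in AQP5-/- glands, and none at an adjusted p under 0.05. With libraries centred on their medians 13 were called higher and 10 lower, and 12 and 11 with quantile normalization. With edgeR 14 were higher and 13 lower, and with DESeq2 15 and 14, so the balance of lower and higher calls depended on the scaling. Over all genes, on the FPKM scale as deposited, lower calls (956, or 8.12%) also outnumbered higher calls (385, or 3.27%). The shares of all genes called under these other scalings were not counted. The median log2 fold change of the 97 genes was -0.16. With the Y-linked covariate 6 of the 97 were called, against 2.96% of all genes, and 39 without AQP5+/+ replicate 2, against 28.6%.

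The aldo-keto reductase gene Akr1c12 was the one gene of these lists that differed by 2-fold at an unadjusted p under 0.05. It stood at 1.36, 5.09 and 0.751 FPKM in AQP5+/+ replicates 1, 2 and 3 and at 7.001, 6.78 and 8.64 FPKM in AQP5-/- replicates 1, 2 and 3. AQP5+/+ replicate 2 was again nearer to the AQP5-/- libraries than to its own group. The log2 fold change was 1.76 (SE 0.49, limma unadjusted p = 0.00753, adjusted p = 0.431) and 0.51 with the Y-linked covariate. Of the same list of 22 NRF2 partners and targets, 4 were called lower, against 8.12% of all genes. Among them Mafg, a small MAF protein that pairs with NRF2, Osgin1 and Akr1b3, an aldose reductase, had log2 fold changes of -0.82, -0.50 and -0.63. With the Y-linked covariate these became -0.22, -0.33 and -0.12, and their calls were lost. That of Osgin1 was also lost with centring, edgeR and DESeq2.

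Selenium handling was led by Sepp1, selenoprotein P, which carries selenium between tissues. Sepp1 stood at 27.2, 28.5 and 41.0 FPKM in AQP5+/+ replicates 1, 2 and 3 and at 52.4, 63.2 and 72.9 FPKM in AQP5-/- replicates 1, 2 and 3. All AQP5-/- libraries were above all AQP5+/+ libraries. The log2 fold change was 0.97 (SE 0.20, limma unadjusted p = 0.00127, adjusted p = 0.431) and 1.12 with the Y-linked covariate. None of the other 11 tested genes of this list was called.

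Glutathione transferases, which attach glutathione to electrophiles, included 3 of 16 called lower and 1 called higher, against 8.12% and 3.27% of all genes. Gstm1 stood at 54.9, 20.7 and 66.2 FPKM in AQP5+/+ and at 23.3, 21.7 and 18.7 FPKM in AQP5-/- libraries, and its log2 fold change of -0.98 became 0.03 with the Y-linked covariate. Gstt3 was lower by the same division (log2 fold change -0.69, and -0.07 with the covariate). Gstz1, at 22.3, 22.6 and 21.8 FPKM in AQP5+/+ and 18.1, 16.2 and 17.9 FPKM in AQP5-/- libraries, was lower in every AQP5-/- library, with a log2 fold change of -0.35 and of -0.37 with the covariate. The call of Gstz1 was lost with centring, quantile normalization, edgeR and DESeq2. The microsomal Mgst3 was higher, by 0.56 on the log2 scale and by 0.28 with the covariate, where it was not called.

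Calls among genes of NADPH supply and glutathione turnover were mostly lower, on the FPKM scale as deposited. Of 11 NADPH genes 4 were called lower and 1 higher, against 8.12% and 3.27% of all genes. The malic enzymes Me1 and Me3 and the transketolase gene Tkt were lower (log2 fold changes of -0.70, -0.64 and -0.48) and the malic enzyme Me2 was higher (0.75). With the Y-linked covariate these became -0.27, -0.42, -0.16 and 0.53, and none of the 4 was called. The call of Me3 was also lost with edgeR and DESeq2. Of 10 glutathione turnover genes 3 were called lower, against 8.12% of all genes. Ggt1, which cleaves extracellular glutathione, the glutamine carrier Slc1a5 and Oplah, which recycles oxoproline, were lower, with log2 fold changes of -0.81, -0.71 and -0.61. With the covariate they became 0.01, -0.12 and -0.66, none of them called, and the calls of Ggt1 and Oplah were also lost with centring. Of 15 thiol and methionine repair genes Sesn3, a sestrin, was lower and Txndc17 was higher, with log2 fold changes of -0.70 and 0.43, or -0.39 and 0.35 with the covariate, where neither was called. Sesn3 stood at 21.0, 13.8 and 17.8 FPKM in AQP5+/+ and at 9.63, 10.99 and 10.8 FPKM in AQP5-/- libraries, with no overlap. Neither of the 2 ferritin genes tested was called.

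Among 9 tested genes that make oxidants, 3 subunits of the phagocyte NADPH oxidase were higher, against 3.27% of all genes called higher. Cybb, its catalytic subunit, stood at 3.81, 4.42 and 5.44 FPKM in AQP5+/+ and at 5.98, 7.24 and 8.73 FPKM in AQP5-/- libraries, Cyba had a log2 fold change of 0.69 and Ncf1 of 0.77. Both genotypes were fully separated for these 3 genes. Macrophage markers moved with them: 6 of 11 were higher at an unadjusted p under 0.05 in limma, against 3.27% of all genes, all 11 had log2 fold changes above 0, where 67.0% of all genes were below 0, and their summed level was 87.0 to 155 FPKM in AQP5+/+ and 151 to 314 FPKM in AQP5-/- libraries. These ranges overlapped slightly, and the part of macrophages in the levels of the oxidase genes was not tested. With the covariate Cybb, Cyba and Ncf1 had log2 fold changes of 0.65, 1.06 and 0.71, the last no longer called. The call of Ncf1 was also lost with edgeR and DESeq2. That of Cyba was lost without AQP5+/+ replicate 1 or 2 or AQP5-/- replicate 3, and that of Cybb without AQP5-/- replicate 3. Aox1, an aldehyde oxidase, was lower, with a log2 fold change of -0.73 that became -0.11 with the covariate and lost its call with centring.

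**Figure D4:**
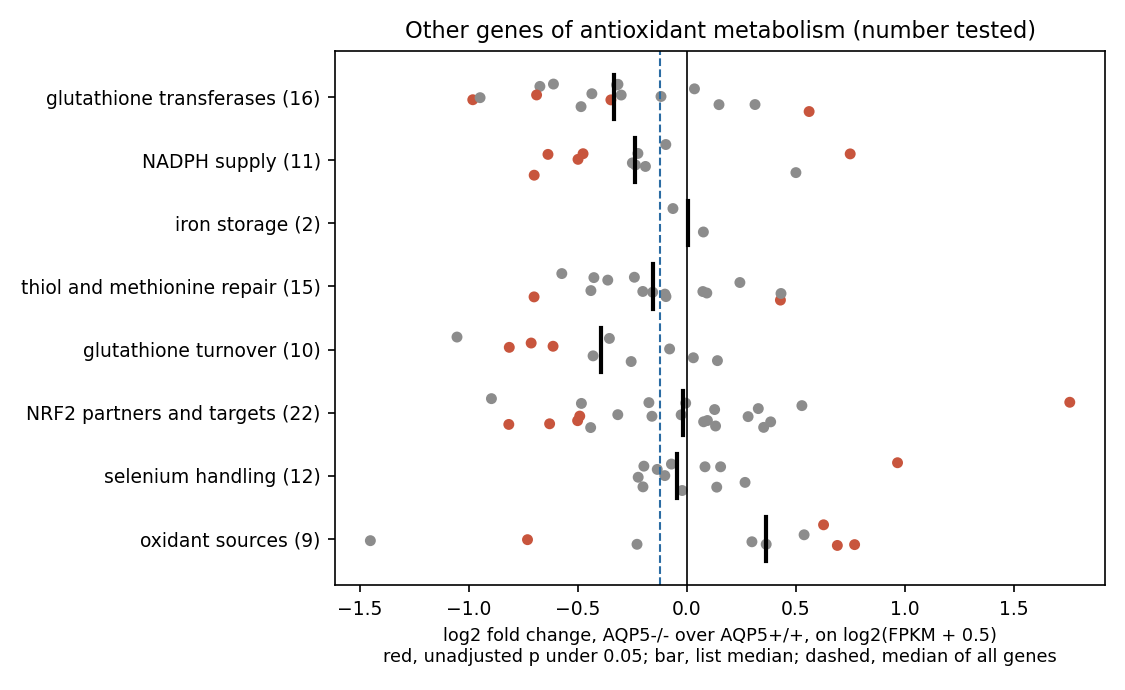
Log2 fold change of AQP5-/- over AQP5+/+ glands for the 97 tested genes of the other antioxidant lists, 1 point per gene. Red points have an unadjusted p under 0.05 in limma, black bars are list medians and the dashed line is the median of all genes (-0.12). Akr1c12 lies farthest to the right at 1.76, and the oxidant sources have the highest list median at 0.36.

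By the cell component terms in the deposited table, where a gene can carry several terms, 17 members were assigned to the mitochondrion. Of these 1, Prdx4, was called, against 11.4% of all genes, and the median log2 fold change of the 17 was 0.03. Of 6 assigned to the endoplasmic reticulum Prdx4 was also the one called. Of the 33 tested members 19 were assigned to the cytosol, and all 3 called members were among them, where 11.4% of all genes were called. Prdx4 was thus counted under each of these terms, and the shares called among all genes with each term were not counted. Circular RNAs of the member genes were rare: Gsr gave an exonic circRNA (mm10, chromosome 8, 33669153 to 33685702, 735 nt) with 2 junction reads in AQP5+/+ replicate 3 and 4 in AQP5-/- replicate 3. Gclc gave an exonic circRNA (mm10, chromosome 9, 77775079 to 77779635, 410 nt) with 1 and 3 reads in AQP5-/- replicates 1 and 2. Each was seen in 2 of 6 libraries, below the minimum of 3, and neither was tested. A difference between genotypes was not detectable at this depth of 2032 to 2953 junction reads per library.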

How the data were processed

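Lacrimal gland RNA of 6 libraries was analysed, grouped by the genotype in the labels. FPKM came from the authors, one value per protein-coding gene and library, with HISAT2 2.0.4, Cufflinks and Cuffdiff 2.2.1 and the mm10 build listed among the submitters' tools. Estimated counts, deposited alongside them, carry a scaling factor for each library. Dividing by it gave estimated fragments, of which 89.7% to 90.7% were whole within 0.02. CircRNA junction counts were deposited raw by the authors, who used cutadapt 1.9.3, STAR 2.5.1b and DCC 0.4.4, and 6 further columns that edgeR 3.16.5 had normalized were left out. Ribo-Zero and TruSeq kits are named in the paper and NEBNext kits in the labels. For strand-aware counting, the answer was not given in the sources used here.

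FPKM were compared with limma 3.58.1 (lmFit, eBayes with trend, R 4.3.3) on log2(FPKM + 0.5) where a gene's mean reached at least 0.5 FPKM, and p-values were adjusted by Benjamini-Hochberg over all genes tested. Fold changes are AQP5-/- over AQP5+/+. Alternatives were another pseudocount or filter, median centring, quantile normalization, other variance models, library weights, edgeR 4.0.16 and DESeq2 1.42.0 on estimated fragments rounded to whole numbers, each library left out, a replicate block and a term for Y-linked transcripts. The limma, edgeR and DESeq2 steps were first tested on simulated data. The members and lists were chosen with earlier results of these data known. Values in every library are given for members called, members that separate the genotypes and the highest member of each branch, and of the other lists up to 4 genes of smallest p and any past 2-fold are named. Other members shown in full were chosen after their values were seen. No circRNA of a member reached 3 libraries, so the circRNA test was not run.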

Additional observations from a re-analysis of the deposited data

How the results depend on the processing

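Over 20 alternatives no member passed 2-fold at an unadjusted p under 0.05, and the 3 members called kept their sign, as did 14 of all 33 members. Of the 30 members not called, 10 were called in at least 1 alternative, a share that was not counted over all genes. Library weights alone called 30.0% of all genes, and the fit without AQP5+/+ replicate 2 called 28.6%. With the other libraries left out and with the replicate block the share of all genes was not counted. The count of members at an unadjusted p under 0.05, 3 as reported, was 8 with library weights, 1 with the replicate block, 1 with the term for Y-linked transcripts and 1 between the libraries that hold them, an alternative chosen after seeing the data. Leaving out 1 library gave 0 (without AQP5+/+ replicate 3) to 8 (without AQP5+/+ replicate 2), with 1 without AQP5-/- replicate 1, and members at an adjusted p under 0.05 numbered 0 to 1. The other antioxidant genes called, 24 as reported, numbered 42 with weights, 6 with the term, 5 between the libraries that hold Y-linked transcripts and 10 to 39 with 1 library left out, 10 without AQP5-/- replicate 3, 14 without AQP5+/+ replicate 3, 15 without replicate 1 of either genotype and 39 without AQP5+/+ replicate 2. The members' median log2 fold change, -0.06, was 0.081 with centring, 0.0131 with quantile normalization, 0.121 with edgeR, 0.121 with DESeq2, 0.0391 with the term and 0.0391 between those libraries, and -0.071 to 0.0145 with 1 library left out. Gstm1 and Ggt1 reversed to 0.0323 and 0.0144 with the term and between those libraries. Same-numbered libraries of the genotypes did not vary together, with r across genes of -0.14, -0.18 and -0.15. Differently numbered libraries gave r of -0.07 to 0.21. All of these values are weak and cannot settle whether the numbers pair the libraries. Under the replicate block 19 other antioxidant genes were called. The causes of these shifts were not tested. Depth limits Gpx7 (2 to 9 fragments), Nqo1, Glrx and Gpx2.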

Other observations

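The ratio of Gclm to Gclc, the modifier to the catalytic subunit of glutamate-cysteine ligase, was computed after the values of both genes were seen. In FPKM it was 5.20, 1.96 and 5.08 in AQP5+/+ replicates 1, 2 and 3 and 1.45, 1.62 and 2.54 in AQP5-/- replicates 1, 2 and 3. AQP5+/+ replicates 1 and 3, the libraries without Y-linked transcripts, had the highest ratios, and AQP5+/+ replicate 2 lay within the range of the AQP5-/- libraries.

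Aox3 and Abcc4, genes of the other lists, divided the libraries in this way without being called. They and Chac1, which did not divide the libraries so, were picked out after their values were seen. The aldehyde oxidase gene Aox3 stood at 65.3, 9.72 and 57.3 FPKM in AQP5+/+ replicates 1, 2 and 3 and at 9.95, 17.0 and 9.89 FPKM in AQP5-/- replicates 1, 2 and 3. The efflux pump gene Abcc4 stood at 22.2, 5.86 and 22.8 FPKM in AQP5+/+ and at 6.36, 9.56 and 7.02 FPKM in AQP5-/- libraries. Their log2 fold changes were -1.45 and -0.90 over all 6 libraries and 0.28 and 0.34 between AQP5+/+ replicate 2 and the AQP5-/- libraries. Chac1, which degrades glutathione, stood at 4.91, 9.42 and 32.8 FPKM in AQP5+/+ and at 2.73, 9.79 and 5.50 FPKM in AQP5-/- libraries, with AQP5+/+ replicate 3 alone far above the rest.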
